A study of Mus musculus with 6 samples.

Results

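The clustered Hox genes were examined in neural progenitor cells made from mouse embryonic stem cells (mESCs). Members were the rows of the deposited count table whose Ensembl identifier carries one of 38 Hox symbols in GENCODE release M21. These 38 genes, out of 48526 in the table, lie in 4 clusters, with 10 genes in Hoxa, 10 in Hoxb, 9 in Hoxc and 9 in Hoxd. Of the 38, 29 had at least 15 reads over the 6 libraries and are called detected, and 9 had fewer.

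The 3 control libraries came from an mESC line with the genotype flox/flox at Dmrta2, and 3 came from a line with the genotype -/-. Both groups were differentiated in N2B27 medium with the same additions. Until day 4 these were the BMP receptor inhibitor LDN193189 (100 nM) and SB431542 (10 µM), which blocks activin and TGF-beta receptors. XAV939 (1 µM), a Wnt pathway inhibitor, was present until day 6, and cyclopamine (1 µM), a Hedgehog pathway inhibitor, from day 2 to day 10. Cells were replated on day 5 and RNA was taken on day 8. Each genotype is 1 line, so genotype and line cannot be told apart, and p-values speak only of the spread among samples of the same line. The labels do not say whether the samples of a line were separate cultures. Total counts ran from 24565560 to 39646793 per library. Dmrta2 itself measured between 75.1 and 85.2 CPM among the controls, but between 409 and 439 CPM among the libraries labelled -/-. The count covers the whole gene, the labels do not give the deleted part, and so it checks nothing about the deletion. CPM stands for counts per 1000000 reads after TMM scaling. The libraries labelled -/- are called the -/- set, values are listed in the order of the column letters A, B and C, and all directions are those of the -/- set against the controls.

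Hox genes encode homeodomain transcription factors that give cells along the head-to-tail axis their regional identity. In a cluster the genes lie in the order in which they are used, so that genes at one end act from the hindbrain on and those at the other end act in the trunk and tail. Genes at matching places in different clusters form a paralog group, numbered from the anterior end. In the central nervous system Hox genes are used in hindbrain and spinal cord, and the forebrain and midbrain lack them. Retinoic acid, Wnt and FGF signals and the Cdx factors turn the clusters on, and Polycomb proteins keep them silent elsewhere.

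Hox transcripts were scarce in both groups and scarcer in the -/- set. Together the 38 genes had 790, 669 and 727 reads in the controls, and 300, 216 and 96 in the -/- set. As a share of each library this was 26.5, 25.6 and 29.6 per 1000000 reads in the controls, and 7.57, 6.14 and 3.31 in the -/- set. Every control library was above every -/- library, although the libraries -/- A and -/- B held more reads in all than any control. The summed level was 27.0 ± 1.80 CPM in the controls and 5.71 ± 2.15 CPM in the -/- set (SD, n = 3), a ratio of 4.73. These are bulk samples, so fewer cells with Hox transcripts and less Hox RNA per cell cannot be told apart.

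Of the 29 detected members, 25 had every -/- value below every control value, and the groups overlapped for the other 4. Over all genes with at least 15 reads this held for 24.1%, and over genes with as many reads as the detected Hox genes for 20.6%. In edgeR's quasi-likelihood test over the whole table, 19 of the 38 members passed the filter on low counts and 18 of them fell (adjusted p under 0.05, Benjamini-Hochberg). Of all tested genes 17.4% fell. The filter matters here. Only 2 of the 19 had every -/- value above its level, so most of them entered through the control libraries alone. With no filter, 36 members had a read and were fitted, 22 of them fell, and the share of all fitted genes that fell was 10.7%. In that fit 34 of the 36 estimates were below 0, with a median of -2.12 on the log2 scale where the median of all genes was -0.01. No member rose in either edgeR fit, 0 were higher at an unadjusted p under 0.05, and DESeq2 called 21 lower and 0 higher. Leaving out 1 library at a time gave between 15 (without flox/flox B) and 20 lower members (20 without -/- A or without -/- C).

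**Figure D1:**
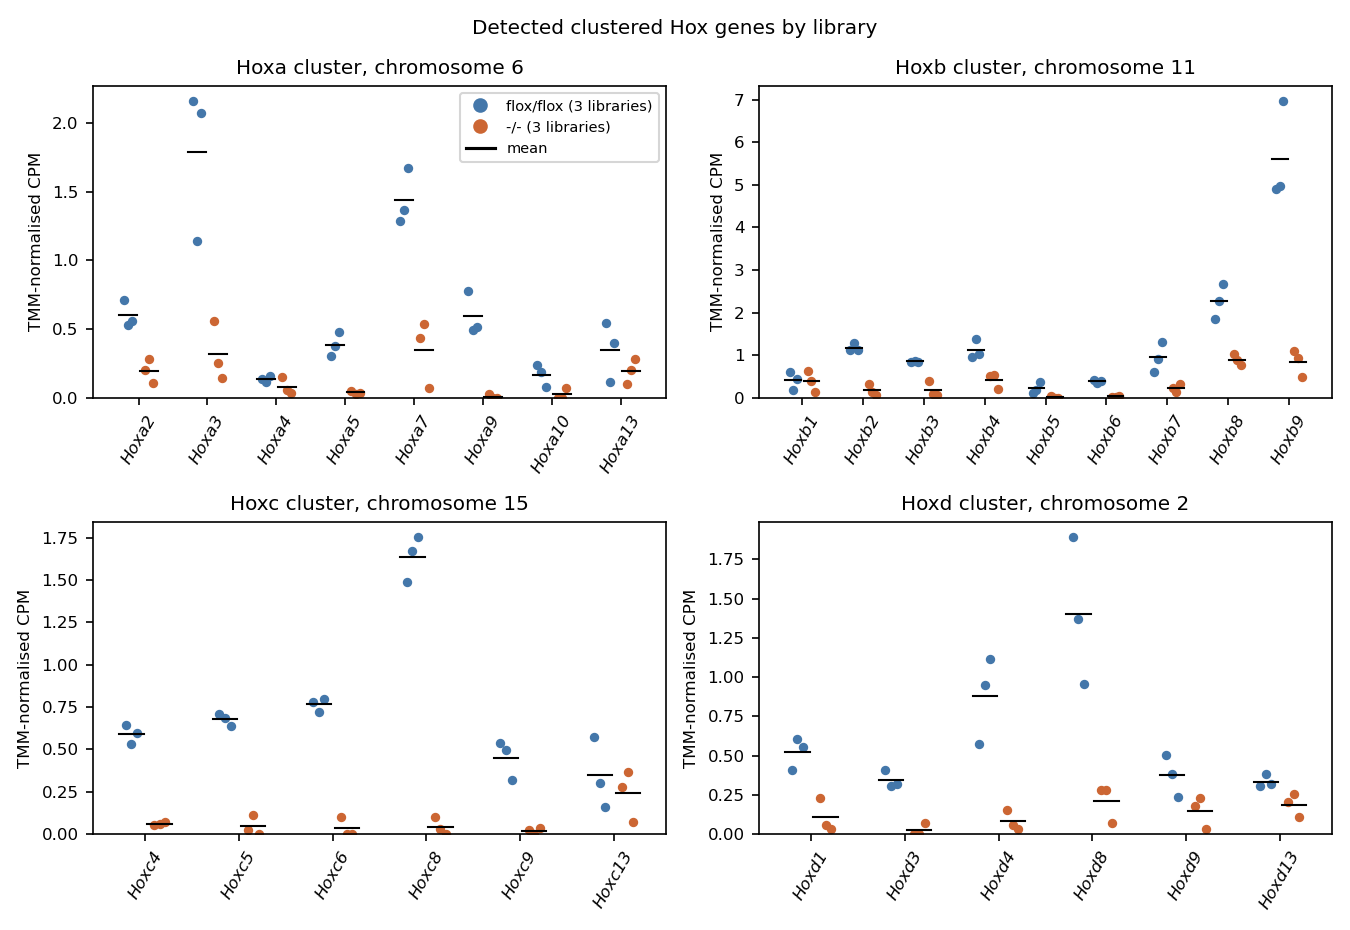
Each panel plots the 29 detected Hox genes of a cluster in order of paralog group (x axis) against TMM-normalised CPM (y axis, linear, with its own range per panel), with 3 points per group in the order A, B, C and a line at the mean. Blue points (flox/flox) lie above orange points (-/-) for 25 genes, and the points mix for Hoxa4, Hoxa13, Hoxb1 and Hoxc13.

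Among the anterior genes, paralog groups 1 to 4, which pattern the hindbrain and upper neck, 8 of the 9 tested members fell. None of these 9 had every -/- value above the filter level. In the fit without a filter 9 of 11 anterior members fell, where 10.7% of all fitted genes did. Paralog group 2 sets the identity of the front hindbrain segments. Hoxa2, which also patterns the second pharyngeal arch, measured 0.710, 0.532 and 0.558 CPM in the controls and at 0.203, 0.283 and 0.106 CPM in the -/- set. Its difference was -1.55 ± 0.36 (log2, SE; adjusted p = 0.0137, edgeR). Hoxb2, a target of the segment factor Egr2, was at 1.11, 1.29 and 1.12 CPM in the controls and at 0.330, 0.142 and 0.0704 CPM in the -/- set, a 6.03-fold fall (adjusted p = 0.00292, edgeR). The groups did not overlap for either gene.

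Hoxa3, used in the caudal hindbrain and in organs of the neck, measured 2.16, 1.14 and 2.07 CPM in the controls and at 0.559, 0.255 and 0.141 CPM in the -/- set. It fell 5.33-fold (adjusted p = 0.00583, edgeR), with flox/flox B the lowest control. Hoxb3 was even among the controls, at 0.845, 0.874 and 0.837 CPM, and at 0.381, 0.0851 and 0.0704 CPM in the -/- set. Its difference of -2.13 ± 0.51 passed (adjusted p = 0.0152, edgeR), but not without flox/flox B (0.0522) and not without -/- B (0.0548). Of its exonic bases 52.9% lie under the antisense gene Hoxb3os. The third gene of the group, Hoxd3, had 28 reads in the control libraries and 2 in those labelled -/-, a ratio of 17.8 with an exact 95% counting interval from 4.49 to 154. It was not tested in the filtered fit, and in the fit without a filter it fell (adjusted p = 0.00498, edgeR).

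Paralog group 4 acts around the border between hindbrain and spinal cord. Hoxb4 measured 0.946, 1.37 and 1.04 CPM in the controls and at 0.508, 0.539 and 0.211 CPM in the -/- set, a 2.57-fold fall (adjusted p = 0.0185, edgeR) that did not pass without flox/flox B (0.0749). Hoxc4 was at 0.642, 0.532 and 0.598 CPM in the controls and had 2 reads in each -/- library, a 9.55-fold fall. Hoxd4 was at 0.574, 0.950 and 1.12 CPM in the controls and at 0.152, 0.0567 and 0.0352 CPM in the -/- set, a 9.65-fold fall (adjusted p = 0.00248, edgeR). Since Hoxd3 and Hoxd4 share exonic bases with each other and with the transcript gene Gm28230 (62.9% and 52.3% of their exonic bases overlap another gene), their reads may not be separable. Hoxa4 had 20 reads in all, at 0.136 ± 0.0227 and 0.0815 ± 0.0624 CPM (SD, n = 3), and the groups overlapped.

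Paralog group 1 acts earliest, in the forming hindbrain. Hoxd1 measured 0.405, 0.608 and 0.558 CPM in the controls and at 0.229, 0.0567 and 0.0352 CPM in the -/- set. The fall was 4.40-fold (adjusted p = 0.0199, edgeR), and it did not pass without flox/flox B (0.073) or without -/- B (0.0744). Hoxb1, the marker of the fourth hindbrain segment, was the tested member that did not pass. It was at 0.608, 0.190 and 0.438 CPM in the controls and at 0.635, 0.397 and 0.141 CPM in the -/- set, so the groups overlapped throughout. The difference was -0.03 ± 0.57 (adjusted p = 0.973, edgeR), its sign changed with the library left out, and the pooled reads gave a ratio of 1.01 with a counting interval from 0.622 to 1.61.

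In the central class, paralog groups 5 to 8, which pattern neck and thorax, all 8 tested members fell and 10 of 11 members were detected. Of those tested only Hoxb8 had every -/- value above the filter level. In the fit without a filter 10 of 11 central members fell, where 10.7% of all fitted genes did. Hoxb8, which marks the thoracic spinal cord and its progenitors, was the second most counted member with 275 reads. It measured 1.86, 2.28 and 2.67 CPM in the controls and at 1.02, 0.879 and 0.774 CPM in the -/- set, a 2.52-fold fall (adjusted p = 0.00303, edgeR). Hoxc8, its paralog in the Hoxc cluster, had 44 reads in each control library and 4, 1 and 0 in the -/- set. That is 1.64 ± 0.137 against 0.0433 ± 0.0525 CPM (SD, n = 3), and a difference of -4.97 ± 0.48 (log2, SE; adjusted p = 0.000565, edgeR). Counting error alone gives its ratio of 33.6 an interval from 14.0 to 105. Hoxd8 was at 1.89, 1.37 and 0.956 CPM in the controls and at 0.280, 0.283 and 0.0704 CPM in the -/- set, a 6.32-fold fall (adjusted p = 0.00350, edgeR). All 3 genes of group 8 fell, and the counting interval of the ratio for Hoxb8 was 1.93 to 3.23.

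Paralog group 7 held Hoxa7 and Hoxb7, which act in the thorax. Hoxa7 measured 1.28, 1.37 and 1.67 CPM in the controls and at 0.432, 0.539 and 0.0704 CPM in the -/- set, a fall of 3.94-fold. Hoxb7 was at 0.608, 0.912 and 1.31 CPM in the controls and at 0.229, 0.142 and 0.317 CPM in the -/- set, a fall of 4.11-fold (adjusted p = 0.00772, edgeR). The library -/- C was the lowest for Hoxa7 and the highest of its group for Hoxb7.

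Groups 5 and 6 had few reads in the -/- set. Hoxc6, a gene of the forelimb level of the spinal cord, was at 0.777, 0.722 and 0.797 CPM in the controls and had 4 reads in -/- A and 0 in -/- B and C. Its difference was -4.17 ± 0.65 (adjusted p = 0.00281, edgeR), and -7.48 without -/- A, which held all its -/- reads. Hoxc5 was at 0.710, 0.684 and 0.637 CPM in the controls and had 1, 4 and 0 reads in the -/- set, a fall of 13-fold (-5.16 on the log2 scale without -/- B). Hoxb6 had 12, 9 and 10 reads in the controls and 1 in each -/- library, a ratio of 13.1 with a counting interval from 4.10 to 67.2 (adjusted p = 0.00110, edgeR). Hoxa5, a regulator of lung and neck development, and Hoxb5 were not tested in the filtered fit. Their reads were 31 against 4 and 17 against 2, with ratios of 9.86 (3.48 to 38.4) and 10.8 (2.57 to 96.5), and both fell in the fit without a filter (adjusted p = 0.00180 and 0.0353, edgeR). A count of 0 in a library allows a level of up to 3 reads, which is between 0.0763 and 0.120 CPM depending on the library, and these intervals cover counting error only.

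The posterior class, paralog groups 9 to 13, acts in lower trunk, tail and limbs. Of its 16 members 2 were tested, Hoxb9 and Hoxa9, and both fell. Only Hoxb9 had every -/- value above the filter level. In the fit without a filter 3 of 14 fitted posterior members fell, where 10.7% of all fitted genes did. Hoxb9 was the most counted member of all, with 541 reads. It measured 4.90, 4.98 and 6.97 CPM in the controls and at 1.09, 0.936 and 0.493 CPM in the -/- set, without overlap. The fall was 6.51-fold (-2.70 ± 0.28, log2, SE; adjusted p = 0.000703, edgeR). Per kilobase of exon it stood first among the members in the controls, at 2.18 CPM per kb, before Hoxb8 (0.861), Hoxb7 (0.612) and Hoxc8 (0.578). In the -/- set Hoxb9 and Hoxb8 were at 0.327 and 0.338 CPM per kb. Hoxa9, also known for its part in blood progenitors, was at 0.777, 0.494 and 0.518 CPM in the controls and had 1 read in -/- A and 0 in -/- B and C. Its 49 reads against 1 give a ratio of 62.3 with a counting interval from 10.7 to 2511 (adjusted p = 0.00107, edgeR). Hoxc9, which separates thoracic from limb-level motor neurons, had 37 reads against 2, and fell in the fit without a filter (adjusted p = 0.000821, edgeR). Hoxd9 had 31 against 16 and was lower in every -/- library, but did not pass in that fit (adjusted p = 0.132, edgeR).

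The homeoboxes of Hoxb9, the most counted member, and of its paralog Hoxc9 show how alike the counted genes are. The homeobox is the stretch of 180 bases that encodes the DNA-binding homeodomain. Both sequences were read from GENCODE M21 transcripts, found by the conserved homeodomain residues of the translated transcript, and capitals mark the 29 positions at which they differ. In GRCm38 they lie at chr11:96274659-96274838 (Hoxb9, plus strand, exon 2) and chr15:102983930-102984109 (Hoxc9, plus strand, exon 3 of the transcript used), each within a coding exon.
Hoxb9: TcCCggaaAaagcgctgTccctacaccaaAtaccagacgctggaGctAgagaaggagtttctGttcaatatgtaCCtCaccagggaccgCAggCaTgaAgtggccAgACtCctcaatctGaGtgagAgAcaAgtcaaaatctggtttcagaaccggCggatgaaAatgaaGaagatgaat
Hoxc9: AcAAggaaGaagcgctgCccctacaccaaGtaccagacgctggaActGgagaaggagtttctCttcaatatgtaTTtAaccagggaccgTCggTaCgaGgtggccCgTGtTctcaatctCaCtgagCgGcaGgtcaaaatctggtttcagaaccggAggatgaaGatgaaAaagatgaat
Their identity was 83.9%, and the longest stretch they share without a mismatch was 24 bases. Over all pairs of the 38 members, identity was between 67.2% and 93.9% within a paralog group (40 pairs) and between 46.1% and 88.9% across groups (663 pairs), and no shared stretch exceeded 52 bases. Reads inside such a stretch cannot be assigned to 1 gene by sequence, and the read length is not given in the sources used here.

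Members at the posterior ends had few reads, and none of those named here passed. Hoxa13, Hoxc13 and Hoxd13, genes of paralog group 13 that shape the distal limb and hindgut, had 48, 55 and 47 reads. Hoxa13 was at 0.351 ± 0.217 and 0.194 ± 0.0900 CPM (SD, n = 3) and Hoxc13 at 0.346 ± 0.211 and 0.239 ± 0.153 CPM, with overlapping groups. Hoxd13 was at 0.334 ± 0.0402 and 0.188 ± 0.0760 CPM without overlap. In the fit without a filter none of these 3 passed (adjusted p between 0.276 and 0.586, edgeR), and the pooled reads of Hoxd13 gave a ratio of 1.72 with a counting interval from 0.928 to 3.23. Hoxa10 had 14 reads against 2, a ratio of 8.90 with a counting interval from 2.05 to 80.7, and did not pass either (adjusted p = 0.0660, edgeR). Just inside the detection limit of 15 reads lay Hoxa10 (16), Hoxb5 (19) and Hoxa4 (20), and just outside it Hoxb13 and Hoxc10 with 12 each. The other undetected members were Hoxa11 and Hoxd10 with 3 reads, Hoxa6 with 2, Hoxc12 and Hoxd11 with 1, and Hoxc11 and Hoxd12 with 0.

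**Figure D2:**
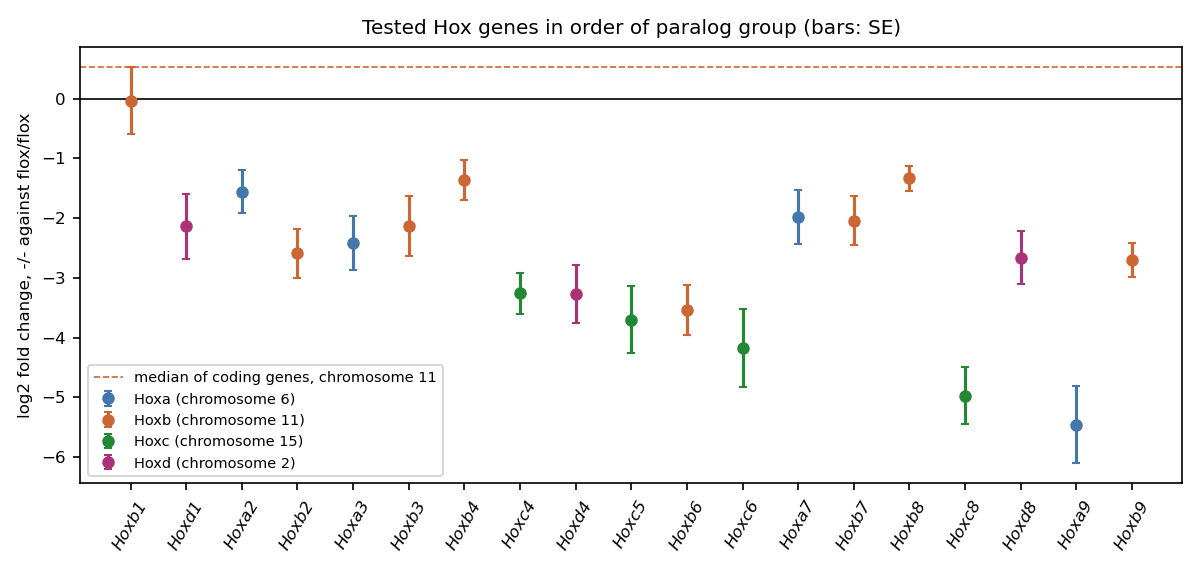
The 19 tested Hox genes are ordered by paralog group on the x axis and plotted as log2 fold change of -/- against flox/flox (y axis), with the SE as bars and colours for the 4 clusters. All but Hoxb1 lie between -1.33 (Hoxb8) and -5.46 (Hoxa9), and the dashed line marks the median of 0.53 of the coding genes of chromosome 11.

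Summed by class, Hox levels were lower in the -/- set for anterior, central and posterior genes. Anterior genes summed to 8.42 ± 0.465 and 2.04 ± 1.11 CPM, central genes to 10.2 ± 0.797 and 1.89 ± 0.523 CPM and posterior genes to 8.46 ± 0.781 and 1.79 ± 0.602 CPM (SD, n = 3). These are ratios of 4.13, 5.38 and 4.74, and no test was made between them. Hoxb9 alone gave 5.62 and 0.840 CPM of the posterior sums, and 8 of the 16 posterior members were detected. Of the 14 posterior members fitted without a filter, 3 fell. Paralog group 10 summed to 0.278 and 0.0772 CPM and group 13 to 1.12 and 0.667 CPM, and none of their members passed. The make-up of the Hox reads was close to even in the controls, with anterior genes at 32.03%, 31.1% and 30.4% in the controls. In the -/- set the anterior share was 42.0% (exact interval 36.4% to 47.8%), 31.5% (25.4% to 38.1%) and 29.2% (20.3% to 39.3%). The share of -/- A lies above the controls and that of -/- C just below them, with an interval that spans them. Hoxb1 gave 25 of the 126 anterior reads of -/- A.

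All 4 clusters were lower in the -/- set, each on its own chromosome. In GRCm38 the members span 98.5 kb on chromosome 6 (Hoxa, 52162417 to 52260880), 174 kb on chromosome 11 (Hoxb, 96194316 to 96368256), 116 kb on chromosome 15 (Hoxc, 102921103 to 103036852) and 96.8 kb on chromosome 2 (Hoxd, 74668310 to 74765142). Hoxa summed to 6.25, 4.33 and 5.94 CPM in the controls and to 1.58, 1.36 and 0.739 CPM in the -/- set. Hoxb, the most abundant cluster, was at 11.5, 12.5 and 15.2 CPM in the controls and at 4.32, 3.23 and 2.11 CPM in the -/- set. Hoxc was at 4.83, 4.52 and 4.30 CPM in the controls and at 0.661, 0.652 and 0.176 CPM in the -/- set. The Hoxd sums were 4.12, 4.07 and 3.51 CPM in the controls and at 1.07, 0.879 and 0.352 CPM in the -/- set. The ratios of the means were 4.49, 4.06, 9.17 and 5.09 for Hoxa, Hoxb, Hoxc and Hoxd. Differences between clusters were not tested. The library -/- C was the lowest of the 6 in all 4 clusters, and without it 20 of 24 tested members fell.

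**Figure D3:**
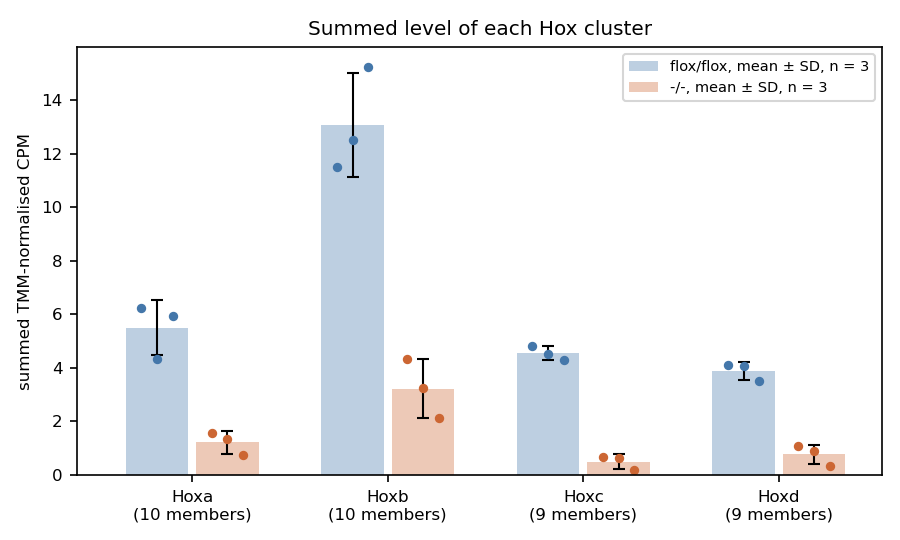
Summed TMM-normalised CPM (y axis) of the members of each Hox cluster (x axis), with points for the 3 libraries of each group, bars at the mean and error bars of 1 SD. The flox/flox sums of the Hoxb cluster lie between 11.5 and 15.2 CPM and those labelled -/- between 2.11 and 4.32 CPM, and the groups do not overlap in the other 3 clusters either.

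The promoters of Hoxa2, Hoxb8 and Hoxd8 are shown, chosen by read count and annotation and not by their fall. RefSeq's promoter table (GRCm38.p6) held 22 of the 38 members, and 12 of them had no annotated exon in the 250 bases before the start, none of these in the Hoxc cluster. The 3 sequences are the 250 bases before the start of the most counted of the 12 in each cluster, and capitals mark every match, on either strand, to 5 motifs. These were a Cdx-type site (TTTATG), a site for Hox with Pbx proteins (TGATNNAT), a Meis site (TGACAG), a retinoic acid receptor half-site (AGGTCA) and the CCAAT box (CCAAT). Overlapping matches merge into 1 run of capitals.
Hoxa2, chr6:52164832-52165081, minus strand: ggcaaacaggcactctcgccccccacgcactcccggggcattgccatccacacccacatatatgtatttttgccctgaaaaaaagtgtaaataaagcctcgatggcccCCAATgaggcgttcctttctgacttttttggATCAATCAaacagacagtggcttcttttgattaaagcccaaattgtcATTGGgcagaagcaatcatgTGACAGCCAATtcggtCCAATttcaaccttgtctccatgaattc
Hoxb8, chr11:96281655-96281904, plus strand: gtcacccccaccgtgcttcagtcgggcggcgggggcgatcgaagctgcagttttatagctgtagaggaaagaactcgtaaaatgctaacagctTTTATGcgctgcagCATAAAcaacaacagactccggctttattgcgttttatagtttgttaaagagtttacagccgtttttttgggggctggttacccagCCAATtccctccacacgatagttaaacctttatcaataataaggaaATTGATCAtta
Hoxd8, chr2:74704365-74704614, plus strand: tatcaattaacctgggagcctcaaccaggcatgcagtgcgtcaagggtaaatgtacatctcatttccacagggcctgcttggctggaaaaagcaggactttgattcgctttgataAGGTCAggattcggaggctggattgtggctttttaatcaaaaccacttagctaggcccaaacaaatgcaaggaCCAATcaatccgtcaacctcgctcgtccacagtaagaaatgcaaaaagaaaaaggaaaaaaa
Hoxa2 held 1 Hox-Pbx match, 1 Meis match and 4 CCAAT boxes. Hoxb8 held 2 Cdx-type matches, 1 Hox-Pbx match and 1 CCAAT box, and Hoxd8 held 1 receptor half-site and 1 CCAAT box. Over the 24 promoters of members in the table, the CCAAT box occurred in 58.3% against 33.8% of all 32851 promoters. The Cdx-type site occurred in 20.8% against 10.8%, the Hox-Pbx site in 16.7% against 7.68%, the half-site in 25% against 14% and the Meis site in 8.33% against 15.9%. A match is a description of letters and not a site shown to be bound.

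The Hoxb genes fell on a chromosome whose other genes were higher. The median log2 difference of 1172 tested coding genes of chromosome 11 was 0.53, and 818 of them rose and 71 fell. On the chromosomes of the other clusters it was 0.04 (chromosome 2), -0.06 (chromosome 6) and -0.01 (chromosome 15). Within 1 Mb of the Hoxb cluster 34 other coding genes were tested, with a median of 0.57. Of these 23 rose and 0 fell in edgeR or DESeq2, with 1 lower at an unadjusted p under 0.05, and 3 were below 0. Of the 8 tested Hoxb members 7 fell, and 8 of all 10 fell in the fit without a filter. With the shift of 0.516 taken out of chromosome 11, the same number of Hox genes fell (18 of 19), and Hoxb1 was still not called (adjusted p = 0.502, edgeR). In that fit the log2 change of Hoxb9 was -3.22 and that of Hoxb6 -4.03. The offset lowers estimates on chromosome 11 and leaves the log2 changes of the other clusters as they were. The unchanged count was therefore largely set in advance.

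Neighbours of the other clusters had medians nearer to 0. Near Hoxa, all 9 coding genes within 1 Mb were below 0 and 4 fell, in edgeR and in DESeq2, with a median of -0.31. Near Hoxc, 10 of 34 fell and 4 rose (median -0.07), and near Hoxd 2 of 8 fell and 2 rose (median 0.05). The homeobox gene Evx2 lies 8.75 kb beyond the posterior end of the Hoxd cluster (chromosome 2, 74652991 to 74659557, minus strand) and went the opposite way. It measured 0.270, 0.266 and 0.359 CPM in the controls and at 2.36, 2.07 and 3.48 CPM in the -/- set, an 8.73-fold rise (adjusted p = 0.000572, edgeR). None of its exonic bases lie under another gene. Its paralog Evx1, 52.6 kb beyond Hoxa13, fell from 3.40 ± 0.766 to 1.43 ± 0.621 CPM (SD, n = 3; adjusted p = 0.0211, edgeR), a call lost without flox/flox A (0.0538), flox/flox C (0.0545) or -/- B (0.0801). Evx proteins mark interneurons of the spinal cord, and both genes are kin of the Hox genes. Of 17 listed flanking genes 15 were in the table and 11 were tested, of which 3 rose and 3 fell. Over all tested genes 17.9% rose and 17.4% fell. Among the 3 that fell was Mtx2 beside Hoxd, with a 1.34-fold fall.

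**Figure D4:**
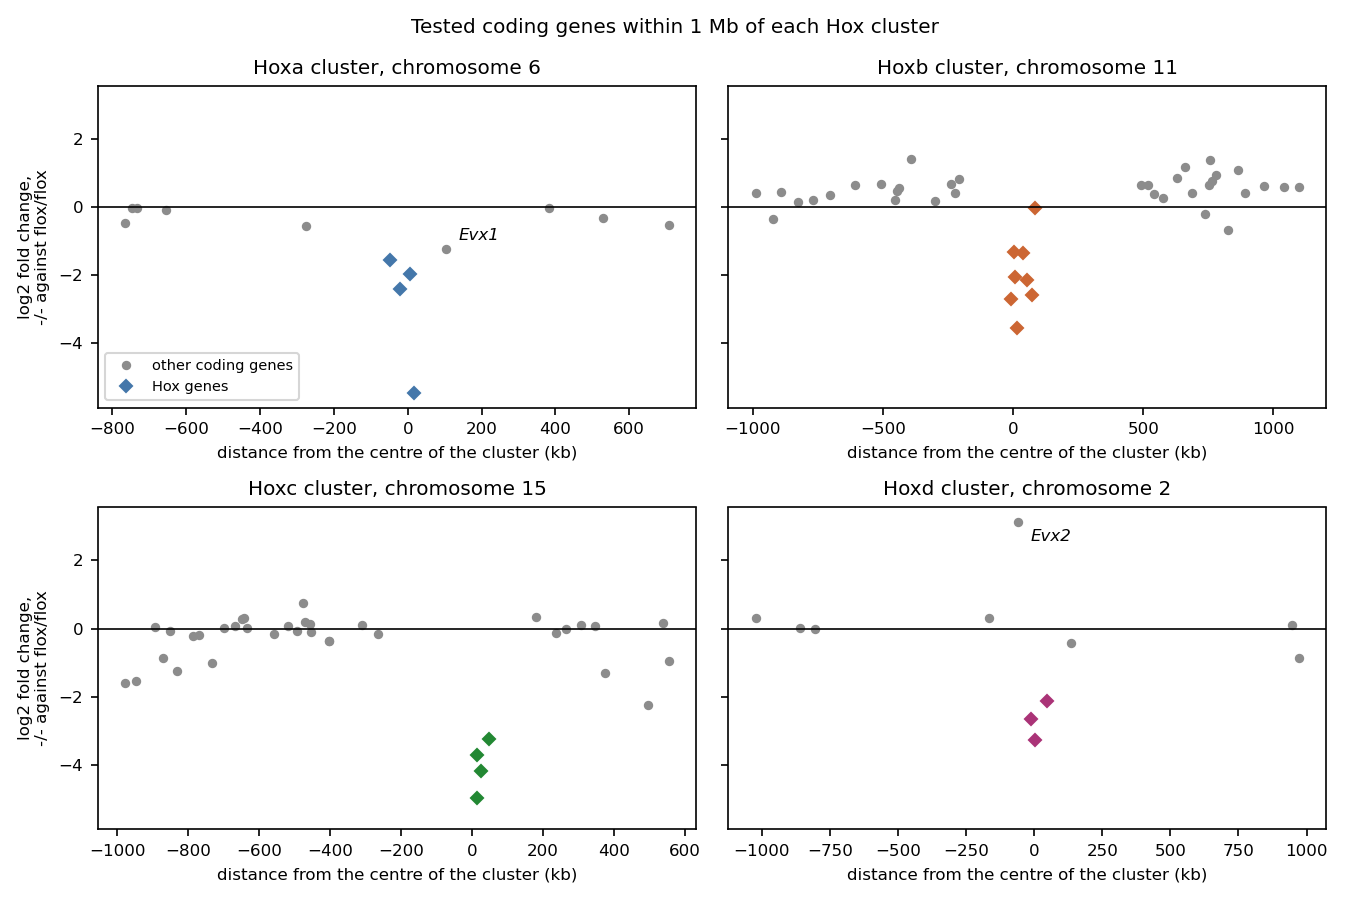
Log2 fold change of -/- against flox/flox (y axis) for tested coding genes within 1 Mb of each Hox cluster, by distance of the gene's middle from the centre of the cluster in kb (x axis). Diamonds are Hox genes and grey points other genes that do not overlap the cluster, and the grey points near Hoxb sit mostly above 0 while 7 of its 8 Hox genes lie below -1.3, with Evx2 at 3.13 beside Hoxd.

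Of 17 listed noncoding genes inside the clusters, 16 were in the table, 5 of these had no read, and 4 passed the filter, all of which fell. Over all tested genes 17.4% fell. Hoxaas3, antisense to the middle of the Hoxa cluster, measured 1.59, 1.48 and 2.71 CPM in the controls and at 0.381, 0.340 and 0.176 CPM in the -/- set. Hotairm1, a transcript from the anterior end of Hoxa, fell 4.00-fold, and Hoxb3os, antisense to Hoxb3 and Hoxb2, fell from 1.74 ± 0.0964 to 0.291 ± 0.212 CPM (SD, n = 3). Hoxaas2 fell from 0.493 to 0.102 CPM on average. All 4 passed the filter through the control libraries. The exonic bases of these genes overlap others by 30.7% (Hoxaas3), 43.1% (Hotairm1) and 76.2% (Hoxb3os), and the strand setting of the counting is not given, so their reads and those of the Hox genes opposite are not independent. Restricted to the 18 detected Hox genes with no exonic overlap at all, 15 had every -/- value below every control value. That held for 24.1% of all genes with at least 15 reads. Over genes with as many reads as the detected Hox genes it held for 20.6%. The limb transcripts Hottip and Hotair had 0 reads, and the 6 listed microRNA genes had at most 12, in libraries that do not capture mature microRNAs.

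Cofactors of Hox proteins were abundant in both groups. The TALE homeodomain proteins of the Pbx, Meis and Pknox families bind DNA together with Hox proteins, and all 9 listed genes were tested. Of them 2 rose and 1 fell, and 4 rose in the fit that blocks on the letter. Over all tested genes 17.9% rose and 17.4% fell in the main fit. Meis1, a gene of chromosome 11, measured 11.5, 11.7 and 12.1 CPM in the controls and at 41.5, 38.4 and 42.4 CPM in the -/- set, a 3.47-fold rise that kept a log2 change of 1.28 with the chromosome 11 shift taken out. Pknox2 fell from 77.7 ± 8.97 to 48.1 ± 0.505 CPM (SD, n = 3). The summed level of the cofactors was 555 to 596 CPM in the controls and 654 to 755 CPM in the -/- set, against 25.4 to 29.0 and 3.38 to 7.63 CPM for the Hox genes.

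Cdx2, a caudal homeodomain factor that binds Hox clusters, measured 12.0, 12.6 and 15.2 CPM in the controls and at 6.12, 5.13 and 3.10 CPM in the -/- set, a 2.75-fold fall (adjusted p = 0.00322, edgeR). Cdx4 had 17 reads in all, at 0.183 and 0.0179 CPM on average, and was not tested. Of the 6 listed Cdx and related ParaHox genes 2 were tested, with 1 lower and 0 higher (1 higher with the letter as a block, 0 at an unadjusted p under 0.05 and 0 in DESeq2). In the list of retinoic acid and caudal signals, 6 of 15 tested genes fell and 2 rose (9 and 2 with the letter as a block). Over all tested genes 17.4% fell and 17.9% rose in the main fit. The median of the list was -0.48 where that of all tested genes was -0.00253. Crabp2, a retinoic acid carrier, fell 1.65-fold, the receptor gene Rarg 2.03-fold and Dhrs3, a retinaldehyde reductase that retinoic acid induces, 3.37-fold. The receptor gene Rara rose 1.45-fold, but it lies on chromosome 11, and with the shift taken out its log2 change was 0.02 (adjusted p = 0.909, edgeR). It was not called without flox/flox B (0.0701) or -/- B (0.0625) either. Gdf11, a TGF-beta family ligand that controls posterior Hox genes, rose 1.23-fold, a call lost without -/- B (adjusted p = 0.0531, edgeR).

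Of the 19 listed Trithorax and Polycomb genes, whose proteins keep Hox clusters active or silent, 4 rose and 2 fell. The shares over all tested genes were 17.9% and 17.4%. The rises were Ezh1, Suz12, Kdm6b and Pcgf2, and all 4 lie on chromosome 11. With its shift taken out 1 of the 19 rose and 5 fell, and the signs of Kdm6b (-0.10) and Pcgf2 (-0.09) turned. The falls were Kdm6a, a histone demethylase gene, from 87.4 to 70.2 CPM on average, and Cbx7, whose call was lost without flox/flox B (0.14), flox/flox C (0.125), -/- A (0.129) or -/- C (0.122).

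Hindbrain segment genes were split, with 4 of 12 tested genes rising and 4 falling. The shares over all tested genes were 17.9% rising and 17.4% falling. En2, a gene of the midbrain and hindbrain border, fell 3.92-fold and Epha4, a segment receptor, 2.70-fold. Egr2, an activator of Hoxa2 and Hoxb2, was at 3.78, 2.01 and 3.55 CPM in the controls and at 1.98, 1.08 and 0.809 CPM in the -/- set, a fall of 2.37-fold (adjusted p = 0.0343, edgeR). That call was lost without flox/flox A (0.1), flox/flox C (0.0775), -/- B (0.115) or -/- C (0.0786). Forebrain identity genes fell in 6 of 9 tested members and rose in 1, with Fezf1 rising from 118 to 197 CPM on average.

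The labelled cell type was checked against 7 neural progenitor markers, all of which were tested, and 4 rose and 3 fell. For this and the marker lists below, the shares over all tested genes were 17.9% higher and 17.4% lower. Fabp7 was at 204 and 389 CPM, Nes at 813 and 676 CPM and Sox2 at 235 and 181 CPM in the controls and the -/- set. Nes was not called without flox/flox A (0.115), flox/flox B (0.165), -/- B (0.145) or -/- C (0.12). The sums of the 7 markers lay between 3150 and 3707 CPM in the controls and between 2883 and 3224 CPM in the -/- set. Markers of other cell types changed in both directions. Of 9 mesoderm markers 5 were tested and 2 fell (T and Twist1), and the list summed to 58.0 to 98.2 CPM in the controls and 42.9 to 74.5 CPM in the -/- set. T, a factor of the tail-end progenitors, was at 46.9, 34.95 and 43.9 CPM and at 30.9, 26.6 and 18.7 CPM, and Meox1, Mesp1, Hand2 and Tbx5 were each under 0.5 CPM on average. T was not called without flox/flox A (0.0655) or -/- B (0.0619), nor Twist1 without -/- B (0.0614) or -/- C (0.0555). Of 6 fibroblast and muscle markers 4 were tested, 2 fell (Col3a1 and Acta2) and 1 rose (Col1a2), with sums of 316 to 781 and 159 to 232 CPM and with Myod1 and Myog at 8 reads and 1. Col1a2 was not called without flox/flox B (0.0566) or -/- A (0.0576). Of 6 blood and endothelial markers 4 were tested, Kdr fell and Tal1 rose, and the sums were 57.5 to 89.4 and 13.2 to 21.6 CPM with Ptprc and Spi1 at 5 reads each. Of 6 neural crest markers 5 were tested, 3 rose and 1 fell, with sums of 48.1 to 52.2 and 62.5 to 123 CPM. Endoderm markers rose in 2 of 4 tested of 5 listed (7.56 to 19.8 and 15.1 to 31.6 CPM, with Afp at 12 reads), and pluripotency markers fell in 3 of 5 with 0 higher, or 1 higher with the block (92.2 to 98.4 and 57.3 to 78.4 CPM). Of the 3 pluripotency calls, 1 was lost when any 1 flox/flox library or -/- B was left out (adjusted p between 0.058 and 0.0776, edgeR) and another without flox/flox A or B or -/- A or C (0.052 to 0.0941). Of the endoderm calls 1 was lost without flox/flox B or C or -/- A or B (0.0797 to 0.104), and of the neural crest rises 1 without any single flox/flox library (0.079 to 0.122). Of 6 spinal cord and motor neuron markers 3 were tested and none passed in edgeR or DESeq2 or at an unadjusted p under 0.05, with sums of 5.85 to 8.21 and 6.2 to 9.46 CPM and with Lhx3 and Chat at 12 and 8 reads. The part of these cell types in the Hox result was not tested.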

How the data were processed

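RNA of 6 libraries, 3 per genotype, was measured by stranded poly(A) sequencing. The authors deposited 1 table of whole-number counts by Ensembl identifier. The submitters' processing notes name the aligner BWA (0.5.9), the counter featureCounts (1.4.6) and the build mm10 (GRCm38). For the annotation release, the strand setting and how reads with several matches were counted, nothing is stated in the labels or notes. Columns name a genotype and a letter, and the labels number the samples, so a column is known by its genotype group alone, with 0 columns unused. Replicates differed beyond sampling noise (chi-square per gene 5.14 to 27.6).

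Counts were tested in R 4.3.3 with edgeR 4.0.16 (glmQLFTest, two-sided, filterByExpr with minimum count 10 and minimum total 15, TMM, group alone) over 20549 genes, with Benjamini-Hochberg adjustment over all of them. The SE is the log2 fold change divided by the square root of F. The pipeline was tested on simulated data. Ratios of pooled reads carry exact conditional 95% intervals. Levels are TMM-normalised CPM, and 1 read is 0.0254 to 0.0398 CPM. Exonic lengths and overlaps came from GENCODE M21. Libraries of the same letter deviated together from their group means (correlations over genes 0.275, 0.101 and 0.264), so a fit with the letter as a block was run beside the main one. DESeq2 1.42.0, limma-voom (limma 3.58.1), other scalings, filters, a threshold of 0.01, each library left out and an offset for chromosome 11 were the alternatives.

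Members and lists were chosen with earlier results of these data known. Tested members that passed the threshold or had at least 0.5 CPM in a group are given for every library. Of each other list up to 3 genes per direction with the smallest adjusted p qualify for naming, and Cdx4, Egr2, Pcgf2, Hoxaas2 and the genes named for few or no reads were named after their values were seen. A few sequences and genes within the rule are not reported here.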

Additional observations from a re-analysis of the deposited data

How the results depend on the processing

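The number of Hox genes that fell was 18 with DESeq2 size factors, upper-quartile scaling, limma-voom and the replicate block on the column letter, and 13 at an adjusted p under 0.01. It was also 18 with the chromosome 11 offset, which lowers the Hoxb estimates further and so could hardly undo a call. A filter of 1 CPM in 3 libraries left 6 members, all 6 of which fell. Of 272 alternative values for the 19 tested Hox genes, 259 kept direction and side of the threshold, 10 lost the call and 3 changed sign. The sign changes were those of Hoxb1, at 0.39 without flox/flox A, 0.01 without flox/flox C and 0.33 without -/- C (-0.57 without -/- A at the other end). Leaving out -/- A moved the fold change, before taking logs, by more than 1.5 times for these genes, given with their log2 change: Hoxa3 (-3.12), Hoxa9 (-7.13), Hoxb2 (-3.37), Hoxb3 (-3.37), Hoxc6 (-7.48), Hoxc8 (-6.36), Hoxd1 (-3.35) and Hoxd4 (-4.09), and leaving out -/- B did so for Hoxc5 (-5.16). In these the left-out library held most of the few -/- reads. Over all genes, 3679 rose and 3571 fell, and 1992 and 1895 did so at an adjusted p under 0.01. With 1 library left out these were 2315 (without flox/flox B) to 3510 higher and 2342 (without -/- B) to 3336 lower. The replicate block gave 4358 and 4171. It changed the call of no tested Hox gene. Among the 117 tested genes of the fixed lists, 27 rose and 38 fell, where 17.9% and 17.4% of all tested genes did. At an adjusted p under 0.01, 16 and 24 of the 117 did so, against 1992 and 1895 of all 20549 tested genes. With the chromosome 11 offset the signs of Efnb3 (-0.0872), Kdm6b (-0.10) and Pcgf2 (-0.0932) turned. Depth limits the members: 1 read decides levels below 0.04 CPM, and members with under 10 reads in a group have ratios known only within a wide counting interval.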
